A study of Homo sapiens with 12 samples.

Results

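The genes described here encode 10 enzymes that make asparagine, serine, cysteine and proline or that handle folate-bound carbon units in mitochondria. They were chosen by gene symbol from a fixed list (ASNS, PHGDH, PSAT1, PSPH, SHMT2, MTHFD2, ALDH1L2, ALDH18A1, PYCR1 and CTH), drawn up with earlier results of these data known. All 10 were found among the 19215 symbols of the authors' deposited table. RNA was sequenced from 12 cultures of C28/I2, an immortalised line of human chondrocytes, grown in DMEM with serum and antibiotics and harvested after 48 h in 4 groups of 3. The SDF1_SKHS group received 1% of SKHS, a formula of traditional Chinese medicine, together with 50 nM SDF-1α. The SDF1_AS4 group received 10 µM astragaloside IV, a saponin of Astragalus roots, together with 50 nM SDF-1α. Cells of the SDF1 group were given 50 nM SDF-1α only, a chemokine that binds the receptor CXCR4. Cells of the DMSO group were given 0.5% DMSO. The study asked whether the products, as candidate CXCR4 antagonists, counter what SDF-1α sets off in these cells. The labels name DMSO for the DMSO group alone and no vehicle for either product, so effects of a solvent and those of SDF-1α or a product cannot be told apart in the comparison concerned. They do not list what SKHS contains.

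The authors' deposited table holds, for each gene, a log2 fold change with a p-value and an adjusted p-value from DESeq2 for SDF1 over DMSO, SDF1_AS4 over SDF1 and SDF1_SKHS over SDF1. It holds no value per culture, so depth is unknown and levels of single cultures are not analysed here. A value after ± is the standard error implied by a fold change and its p-value, on the log2 scale, and 95% intervals come from it. A gene is called higher or lower at an adjusted p under 0.05 over all genes with a value. The 10 enzymes were measured precisely in the 3 comparisons, with implied standard errors between 0.07 and 0.16. The table gives no levels, so presence of chondrocyte genes could only be read from precision. SOX9 and ACAN, which encode a chondrocyte transcription factor and the aggrecan core, had implied standard errors of 0.10 and 0.15 in each comparison, while COL2A1, the cartilage collagen, had 1.78 to 2.68. In SDF1_SKHS over SDF1, 3 of 7 measured chondrocyte markers had an implied standard error of 0.3 or less. So did 4 of 10 markers of leukocytes, endothelium, epithelium and neurons. Precision therefore did not set the chondrocyte markers apart from the others. In that comparison 2 of the 10 were lower, TUBB3 (-1.14 ± 0.08) and VWF (-1.13 ± 0.28), as were SOX9 (-0.40 ± 0.10) and ACAN (-0.41 ± 0.15) among 7 measured chondrocyte markers, and none was higher. In SDF1 over DMSO 3 of 7 chondrocyte markers (ACAN, CHAD and COL11A1) and 1 of the 10 others (SNAP25) were lower, and the part of these shifts in the results was not tested.

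Cells make serine from the glycolytic intermediate 3-phosphoglycerate by the successive action of PHGDH, PSAT1 and PSPH. In mitochondria SHMT2 moves a carbon unit of serine onto folate, MTHFD2 oxidises that unit, and the unit leaves as formate, while ALDH1L2 burns it to carbon dioxide. ASNS makes asparagine from aspartate, ALDH18A1 and PYCR1 carry out the first and last steps from glutamate to proline, and CTH releases cysteine from cystathionine. Many of these genes are known targets of ATF4, a transcription factor that is translated when amino acids run short or unfolded proteins accumulate, the setting called the integrated stress response. In cartilage, proline and glycine, which SHMT2 makes from serine, are main building blocks of collagen.

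Promoters are shown for the 2 enzymes that rose most with SKHS, ASNS and PSAT1, and for the 1 that fell, ALDH18A1. RefSeq windows from 250 bases before to 50 bases after a start site (GRCh38.p14) were found for 6 of the 10 genes, with 2 start sites for ASNS. Capitals mark the letters TGATGNAA, the core of the amino acid response element that ATF4 binds with C/EBP partners, or CACGTG, the E-box letters, on either strand. The window of ASNS is chr7:97872359-97872658 (minus strand), that of PSAT1 is chr9:78296875-78297174 (plus strand) and that of ALDH18A1 is chr10:95656662-95656961 (minus strand).
ASNS: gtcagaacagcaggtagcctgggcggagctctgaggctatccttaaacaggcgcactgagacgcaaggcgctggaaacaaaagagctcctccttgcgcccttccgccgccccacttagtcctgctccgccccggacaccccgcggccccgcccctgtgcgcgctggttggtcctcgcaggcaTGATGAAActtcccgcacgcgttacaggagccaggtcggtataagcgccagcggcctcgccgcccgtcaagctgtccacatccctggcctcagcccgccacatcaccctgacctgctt
PSAT1: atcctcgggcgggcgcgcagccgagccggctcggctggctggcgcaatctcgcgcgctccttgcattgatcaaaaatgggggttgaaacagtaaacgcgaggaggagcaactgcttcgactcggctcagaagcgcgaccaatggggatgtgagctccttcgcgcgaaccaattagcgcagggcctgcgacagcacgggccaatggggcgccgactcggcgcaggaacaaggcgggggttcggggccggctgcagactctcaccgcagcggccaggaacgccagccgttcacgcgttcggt
ALDH18A1: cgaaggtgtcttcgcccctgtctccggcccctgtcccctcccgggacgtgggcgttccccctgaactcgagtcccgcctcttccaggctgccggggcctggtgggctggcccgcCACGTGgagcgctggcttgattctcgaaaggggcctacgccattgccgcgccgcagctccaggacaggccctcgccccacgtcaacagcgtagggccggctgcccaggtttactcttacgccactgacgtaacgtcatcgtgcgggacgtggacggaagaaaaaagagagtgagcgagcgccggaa
The ASNS window held TGATGNAA as TGATGAAA from 68 to 61 bases upstream of its start, letters known as part of the nutrient-sensing response element of the human ASNS promoter. The letters were in 3.62% of the 35116 windows of the RefSeq table and in no other window of these enzymes, PSAT1 included. CACGTG, a palindrome found in 7.26% of all windows, occurred in the ALDH18A1 window from 136 to 131 bases upstream of the start and in none of the other windows of these enzymes. The 2 motifs do not overlap in any of the windows shown, and a match of letters is a description and not a bound site.

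With SKHS added to SDF-1α, 9 of the 10 enzymes rose and ALDH18A1 fell. Per the authors' DESeq2 test, 15.8% of all 18251 genes tested were called higher in SDF1_SKHS over SDF1 and 16.7% lower. The median log2 fold change of the 10 enzymes was 1.28, against 0.00 for all genes tested. A rise of at least 2-fold was called for 6 of the 10 (ASNS, PSAT1, ALDH1L2, MTHFD2, PSPH and PHGDH), against 1.7% of all genes. Sequencing of whole cultures gives shares of RNA, so fewer cells that express a gene and less of its RNA per cell cannot be told apart.

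**Figure D1:**
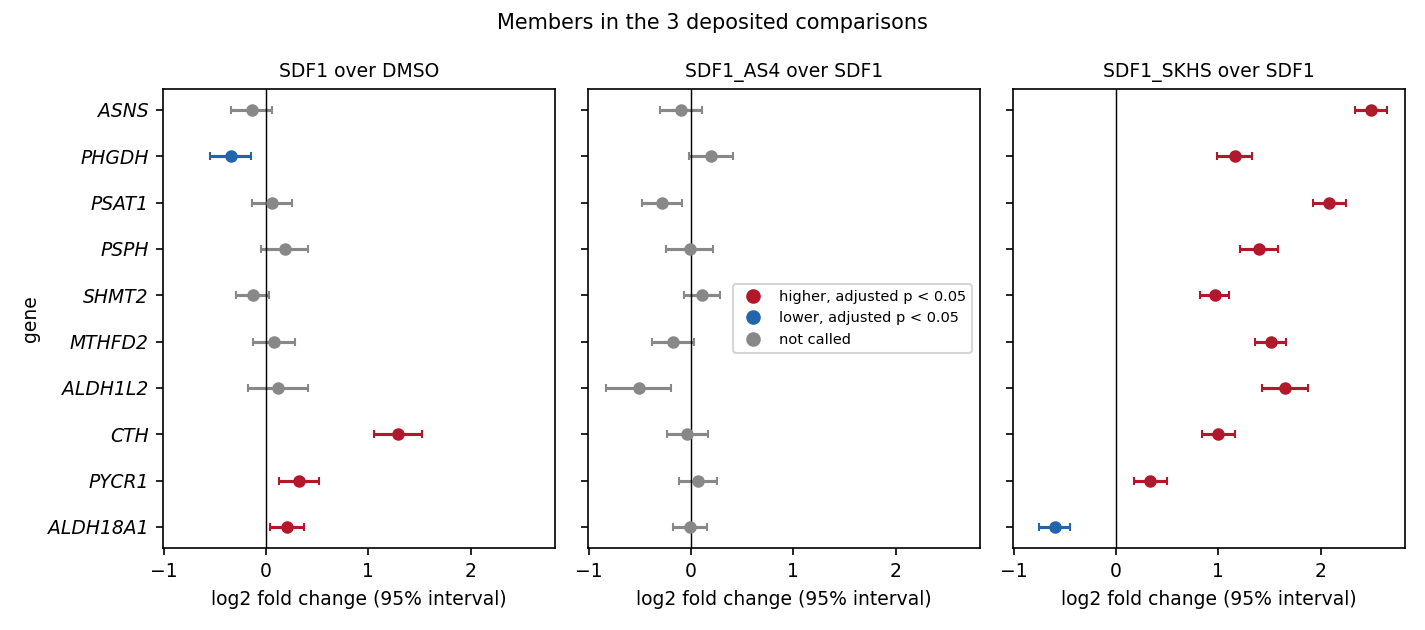
Log2 fold change of each of the 10 enzymes (rows) in the authors' 3 deposited comparisons (panels), with points for the fold change and lines for the 95% interval from the implied standard error (3 cultures a group). With SKHS, 9 points lie between 0.33 and 2.49 and ALDH18A1 lies at -0.60, while no point of SDF1_AS4 over SDF1 is called.

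ASNS, asparagine synthetase, rose most. In the authors' deposited table its log2 fold change in SDF1_SKHS over SDF1 was 2.49 ± 0.08, a 5.62-fold rise (DESeq2 adjusted p = 1.64e-207). By p-value it stood at place 2 of 18251 genes, and by size at place 8 of 12028 precisely measured genes, those whose implied standard error did not exceed 0.3. Its gene lies on chromosome 7 at 97852118 to 97872542 (GRCh38, GENCODE 29). ASRGL1, which encodes an asparaginase, the enzyme of the opposite reaction, stood at -0.24 ± 0.22 and was not called, and the asparagine tRNA synthetase NARS1 rose by 0.72 ± 0.07.

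The 3 enzymes of serine synthesis rose together. PSAT1, the aminotransferase of the second step (chromosome 9, 78297143 to 78330093), rose 4.25-fold (log2 fold change 2.09 ± 0.08). PSPH, the phosphatase of the last step (chromosome 7, 56011051 to 56051604), rose 2.63-fold (1.395 ± 0.09), and PHGDH, the dehydrogenase of the first step (chromosome 1, 119648411 to 119744226), rose 2.23-fold (1.16 ± 0.09). The order of the rises did not follow the order of the steps. The intervals of PSPH and PHGDH overlapped, and that of PSAT1 lay above both.

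Among other genes of serine use, 5 of 10 rose and 1 fell, with a median of 0.61. The rises were those of SARS1, the serine tRNA synthetase (1.04 ± 0.08), SLC1A4 and SLC1A5, transporters of serine and other neutral amino acids (0.87 ± 0.08 and 0.74 ± 0.07), PTDSS2, a phosphatidylserine synthase (0.61 ± 0.09), and SDSL, a gene related to serine dehydratase (0.63 ± 0.12). The fall was that of SPTLC2, a subunit of the enzyme that starts sphingolipid synthesis from serine (-0.33 ± 0.09). SDSL and SPTLC2 were named after their values were seen.

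The 3 mitochondrial folate enzymes of the list rose, and the cytosolic counterpart of each fell. ALDH1L2, mitochondrial formyltetrahydrofolate dehydrogenase (chromosome 12, 105019784 to 105084577), rose 3.14-fold (1.65 ± 0.11), while the cytosolic ALDH1L1 fell by 0.81 ± 0.14 on the log2 scale. MTHFD2, the mitochondrial methylenetetrahydrofolate dehydrogenase and cyclohydrolase (chromosome 2, 74198562 to 74217565), rose 2.86-fold (1.51 ± 0.08), while MTHFD1, which carries these activities in the cytosol, fell by 0.46 ± 0.08. SHMT2, mitochondrial serine hydroxymethyltransferase (chromosome 12, 57229327 to 57234935), rose 1.95-fold (0.96 ± 0.07), while the cytosolic SHMT1 fell by 0.92 ± 0.10. Each of these 6 changes passed the test, with DESeq2 adjusted p-values in the authors' deposited table from 1.6e-82 for MTHFD2 to 2.12e-07 for MTHFD1. The difference between a mitochondrial gene and its cytosolic counterpart was not itself tested. MTHFD2L, the other mitochondrial dehydrogenase of this step, stood at -0.12 ± 0.20 and was not called, and MTHFD1L, the mitochondrial formate-releasing synthetase, rose by 1.07 ± 0.09.

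**Figure D2:**
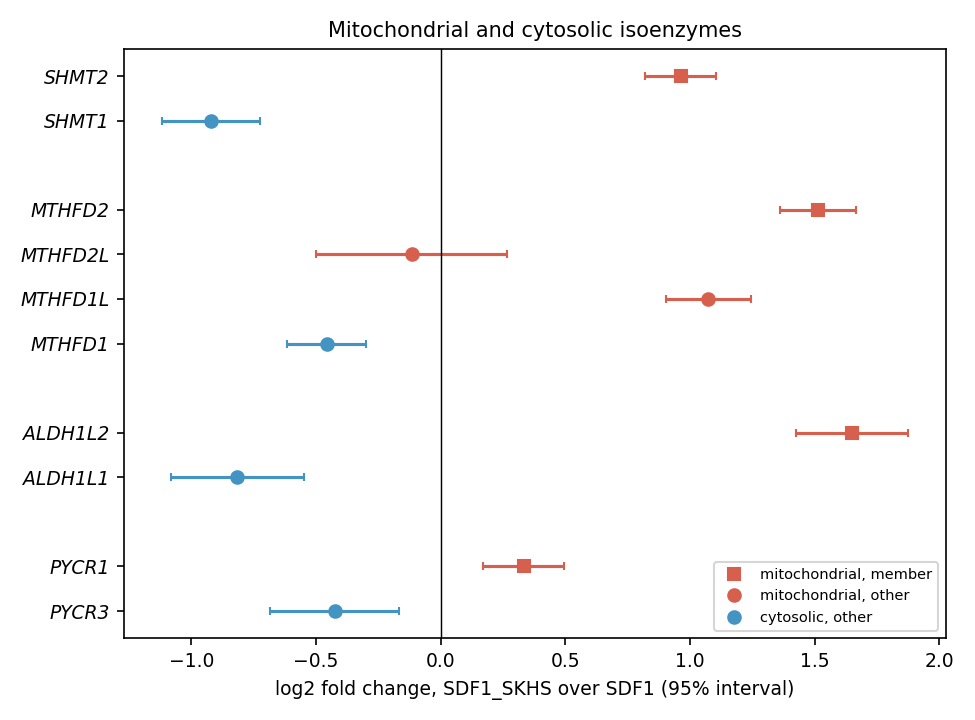
Log2 fold change in SDF1_SKHS over SDF1 (x axis) of mitochondrial (red) and cytosolic (blue) enzymes of the same or neighbouring reactions (rows), with squares for the enzymes of the list, circles for others and lines for the 95% interval (3 cultures a group). SHMT2, MTHFD2, MTHFD1L and ALDH1L2 lie above 0, and SHMT1, MTHFD1, ALDH1L1 and PYCR3 lie below it.

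Of 24 other genes of folate and carbon-unit metabolism, cytosolic and mitochondrial, 10 fell and 3 rose, with a median of -0.12. The falls with the smallest p-values were those of TYMS, thymidylate synthase (-0.74 ± 0.07), SHMT1 and MTR, methionine synthase (-0.88 ± 0.10). The falls were not all of cytosolic genes. SLC25A32, the mitochondrial folate carrier (-0.31 ± 0.10), and DLD, a mitochondrial dehydrogenase (-0.37 ± 0.09), fell too, both named after their values were seen. The 3 rises were those of MTHFD1L, MTRR, which reactivates methionine synthase (0.49 ± 0.10), and GART, an enzyme of purine synthesis that uses formyl folate (0.22 ± 0.08), the last 2 named after their values were seen.

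CTH, cystathionine gamma-lyase (chromosome 1, 70411218 to 70439851), rose 1.999-fold in SDF1_SKHS over SDF1 (0.999 ± 0.08, DESeq2 adjusted p = 7.49e-32 in the authors' deposited table). CBS, which makes the cystathionine that CTH splits, rose by 1.47 ± 0.08. Of 13 other genes of transsulfuration, methionine and cysteine use, 3 rose and 4 fell, with a median of 0.09. The other 2 rises were those of GCLC and GCLM, the subunits of glutamate-cysteine ligase (1.02 ± 0.11 and 0.46 ± 0.09), which joins cysteine to glutamate for glutathione. MAT2A, which makes S-adenosylmethionine, led the falls (-0.66 ± 0.09). The remaining falls, named after their values were seen, were those of MTAP (-0.41 ± 0.09), ETHE1 (-0.34 ± 0.10) and GSS, glutathione synthetase (-0.22 ± 0.09).

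The 2 proline enzymes moved in opposite directions. ALDH18A1, pyrroline-5-carboxylate synthase and the entry of the route (chromosome 10, 95605929 to 95656706), was 1.52-fold lower in SDF1_SKHS than in SDF1 (log2 fold change -0.60 ± 0.08, DESeq2 adjusted p = 2.31e-13 in the authors' deposited table). PYCR1, the mitochondrial reductase of the last step (chromosome 17, 81932384 to 81942412), rose 1.26-fold (0.33 ± 0.08, adjusted p = 0.000334). This was the smallest rise among the 9, and its call was lost with p-values from a t distribution with 4 degrees of freedom (adjusted p = 0.0951). PYCR3, the cytosolic reductase, fell by 0.43 ± 0.13. ALDH4A1, which returns pyrroline-5-carboxylate to glutamate, fell by 1.36 ± 0.14. No gene rose among the 7 measured of 9 other genes of proline and glutamate metabolism, and PYCR3 and ALDH4A1 were the 2 that fell, with a list median of -0.08.

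By size of change with SKHS the enzymes fell into steps. The intervals of ASNS (2.33 to 2.65), PSAT1 (1.92 to 2.25) and ALDH1L2 (1.42 to 1.88) did not overlap with each other. From ALDH1L2 down through MTHFD2, PSPH, PHGDH, CTH and SHMT2, each overlapped with the next. SHMT2 (0.82 to 1.10), PYCR1 (0.17 to 0.50) and ALDH18A1 (-0.75 to -0.45) were again separate from each other.

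Genes of the integrated stress response rose with these enzymes. Of 20 regulators and targets, 16 rose and 1 fell in SDF1_SKHS over SDF1, with a median of 0.94. ATF4 itself rose by 0.97 ± 0.07. TRIB3, a pseudokinase target of the pathway (2.99 ± 0.10), CHAC1, a glutathione-degrading enzyme (2.98 ± 0.10), NUPR1, a stress-induced chromatin protein (2.07 ± 0.09), and SESN2, a leucine sensor of mTORC1 (2.04 ± 0.09), had the smallest p-values. DDIT3, the transcription factor CHOP, rose by 1.08 ± 0.12. The 1 fall, named after its value was seen, was that of EIF2AK3, the kinase PERK (-0.999 ± 0.15). Also named after their values were seen, EIF2AK4 and EIF2AK1, which encode the kinases GCN2 and HRI, were not called (0.17 ± 0.07 and 0.15 ± 0.08), and neither was ATF5 (0.12 ± 0.10).

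Around asparagine, 2 of 11 genes of aspartate, alanine and arginine metabolism rose and 3 fell, with a median of -0.05. GPT2, the mitochondrial alanine aminotransferase, rose by 1.58 ± 0.10, while its cytosolic relative GPT, named after its value was seen, fell by 2.51 ± 0.89. ASL, which makes arginine, fell by 1.33 ± 0.10, and ARG2, which splits it, by 0.53 ± 0.15. Counts of the pathway lists with SKHS stand beside 15.8% of all genes called higher and 16.7% called lower, and no list was tested as a set.

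**Figure D3:**
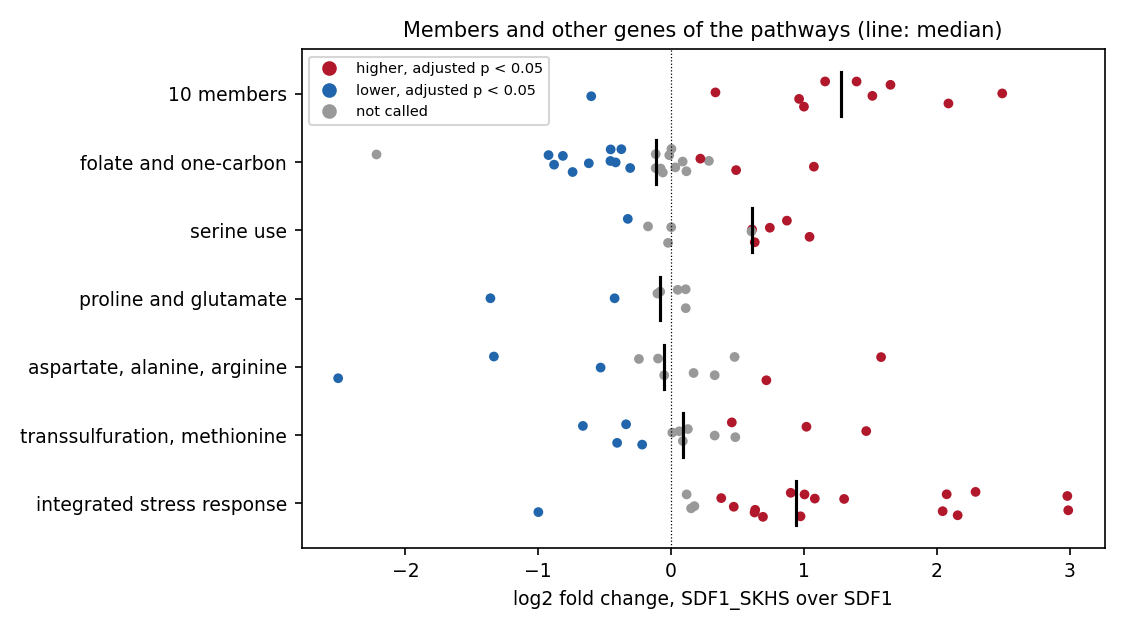
Log2 fold change in SDF1_SKHS over SDF1 (x axis) of the 10 enzymes and of the other genes of each pathway list (rows), with a point for each gene, black lines for medians, red and blue for genes called higher and lower and grey for genes not called. The 10 enzymes have a median of 1.28 and the integrated stress response genes of 0.94, while the folate list lies at -0.12.

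With SDF-1α alone the enzymes moved little, except CTH. CTH was 2.45-fold higher in SDF1 than in DMSO (1.29 ± 0.12, DESeq2 adjusted p = 4.57e-25 in the authors' deposited table), at place 13 of 11982 precisely measured genes by size. PYCR1 rose by 0.32 ± 0.10 (adjusted p = 0.00411) and ALDH18A1 by 0.20 ± 0.08 (adjusted p = 0.0455). The call of ALDH18A1 was lost once fold changes were centred on the median of precise genes (adjusted p = 0.121). It was also lost at an adjusted p under 0.01 and with the trend in transcript length and GC content removed (adjusted p = 0.0522). With that trend removed, 2 enzymes were called higher and 2 lower. PHGDH fell by 0.34 ± 0.10 (adjusted p = 0.00336). With p-values from a t distribution with 4 degrees of freedom only CTH was called. The counts of 3 higher and 1 lower among 10 stand beside 17.2% of all genes called higher and 17.5% called lower, with a median of 0.10 for the enzymes and -0.01 for all 18162 genes tested.

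The other 6 enzymes did not pass the test in SDF1 over DMSO. Their log2 fold changes were 0.18 ± 0.12 for PSPH, 0.12 ± 0.15 for ALDH1L2, 0.08 ± 0.11 for MTHFD2, 0.06 ± 0.10 for PSAT1, -0.13 ± 0.08 for SHMT2 and -0.14 ± 0.10 for ASNS. The widest of their intervals, that of ALDH1L2, ran from -0.18 to 0.41. From PYCR1 down to PHGDH the intervals of neighbours overlapped, and only CTH stood clear of the next gene.

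The partner of CTH went the other way with SDF-1α, since CBS was lower in SDF1 than in DMSO (-0.45 ± 0.10), as was MAT2A (-0.86 ± 0.08). Of the 13 genes of that list 4 rose and 2 fell, led upward by ETHE1, a sulfide-oxidising enzyme (0.46 ± 0.10), and MAT2B, the regulatory partner of MAT2A (0.40 ± 0.11). Of the 20 integrated stress response genes 5 rose and 4 fell, with ATF4 at 0.06 ± 0.08, DDIT3 at -0.90 ± 0.14, TRIB3 at 0.18 ± 0.14 and CHAC1 at -0.04 ± 0.15, of which only DDIT3 was called. EIF2AK4, the amino acid sensing kinase GCN2, rose by 0.76 ± 0.09. The highest value of the stress response list was 1.43, and its median was 0.13. The folate list had 4 rises and 2 falls among 24, with SHMT1 at -0.10 ± 0.10 and MTHFD1 at -0.15 ± 0.08 not called and ALDH1L1 higher at 0.39 ± 0.14. The falls were those of AMT, of the glycine cleavage system (-1.41 ± 0.19), and the folate carrier SLC19A1 (-0.57 ± 0.12). Other genes of the glycine cleavage system did not follow AMT, since GCSH (0.50 ± 0.12) and DLD (0.34 ± 0.10) rose. GLDC, named after its value was seen, was not called (-0.43 ± 0.57). In the proline and glutamate list 3 of 8 rose, which were GLUL, ALDH4A1 and GLUD1 (0.48 ± 0.08, 0.44 ± 0.13 and 0.37 ± 0.09). Of 11 genes of aspartate, alanine and arginine metabolism 4 rose, led by ARG2 (0.82 ± 0.17), and GPT fell (-1.47 ± 0.48). Of 10 genes of serine use SPTLC2 rose (0.32 ± 0.09), while PTDSS2 (-0.69 ± 0.11) and SLC1A5 (-0.35 ± 0.08) fell. Counts of these lists stand beside 17.2% of all genes called higher and 17.5% called lower, and no list was tested as a set.

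With astragaloside IV no enzyme of the list passed the threshold in the authors' DESeq2 test. Of all 18133 genes, 0.199% were called higher and 0.16% lower in SDF1_AS4 over SDF1. An unadjusted p under 0.05 was reached by 2 of the 10, against 16.4% of all genes. These were ALDH1L2, with a log2 fold change of -0.51 ± 0.16 (adjusted p = 0.0821), and PSAT1, with -0.28 ± 0.10 (adjusted p = 0.11). Once the trend with transcript length and GC content was removed, which leaves out genes without a known length, 1344 genes had an unadjusted p under 0.05, against 2970 as deposited. The enzymes among them were still 2 in number, and ALDH1L2 stood at -0.33 (adjusted p = 0.620). The other 8 lay between -0.18 for MTHFD2 and 0.19 for PHGDH, and the interval of ASNS ran from -0.30 to 0.11. No gene was called in any of the 6 pathway lists either, with ATF4 at 0.05 ± 0.09, SHMT1 at 0.05 ± 0.11 and CBS at -0.05 ± 0.11.

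The difference between the products was tested on the difference of the authors' deposited log2 fold changes over the shared SDF1 cultures, with a standard error that adds both implied variances and so is an upper bound. In SDF1_SKHS over SDF1_AS4, 8 of the 10 enzymes were higher and 1 lower, against 8.5% and 10.4% of 17927 genes, with Benjamini-Hochberg adjustment over all of them. The median was 1.22 for the enzymes and -0.02 for all genes tested. ASNS was 6.01-fold higher in SDF1_SKHS than in SDF1_AS4 (2.59 ± 0.13), PSAT1 5.17-fold (2.37 ± 0.13) and ALDH1L2 4.48-fold (2.16 ± 0.20). ALDH18A1 was lower in SDF1_SKHS, with a log2 fold change of -0.59 ± 0.12. PYCR1 did not pass, with a difference of 0.26 ± 0.13 (95% interval 0.02 to 0.51, adjusted p = 0.143). It passed once the trend with transcript length and GC content was removed (adjusted p = 0.00363) and with an assumed shared part of the SDF1 spread taken out (adjusted p = 0.0213). When p-values were taken from a t distribution with 4 degrees of freedom, none of the 10 passed, although 9 had an unadjusted p under 0.05. ASNS, at place 2 of 17927 genes by p-value, then had an adjusted p of 0.0882, so no gene ranked below it could pass. SKHS was given at 1% and astragaloside IV at 10 µM, so these are values of 2 preparations at unmatched doses.

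Relative to DMSO, sums of the authors' deposited log2 fold changes placed each product group on the scale of cells without SDF-1α. In SDF1_SKHS over DMSO 9 of the 10 enzymes were higher and ALDH18A1 was lower (-0.40 ± 0.11), against 18.1% and 19.1% of 17936 genes. With p-values from a t distribution with 4 degrees of freedom the calls of ALDH18A1 (adjusted p = 0.103) and PYCR1 (adjusted p = 0.0506) were lost, which left 8 higher and 0 lower. CTH was 4.89-fold higher in SDF1_SKHS than in DMSO (2.29 ± 0.15), and ASNS was 5.10-fold higher (2.35 ± 0.13), with overlapping intervals. PHGDH, which was lower with SDF-1α alone, was 1.76-fold higher in SDF1_SKHS than in DMSO (0.81 ± 0.13). In SDF1_AS4 over DMSO, CTH (1.25 ± 0.16) and PYCR1 (0.39 ± 0.14) were higher and no enzyme was lower, against 10.8% and 11.6% of 17895 genes. The call of PYCR1 (adjusted p = 0.0208) was lost once the trend with transcript length and GC content was removed (adjusted p = 0.145), and the t distribution ended both calls (adjusted p = 0.147 for CTH and 0.240 for PYCR1). With an assumed shared part of the SDF1 spread taken out, ALDH1L2 was called lower in SDF1_AS4 than in DMSO (-0.40, adjusted p = 0.0440).

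**Figure D4:**
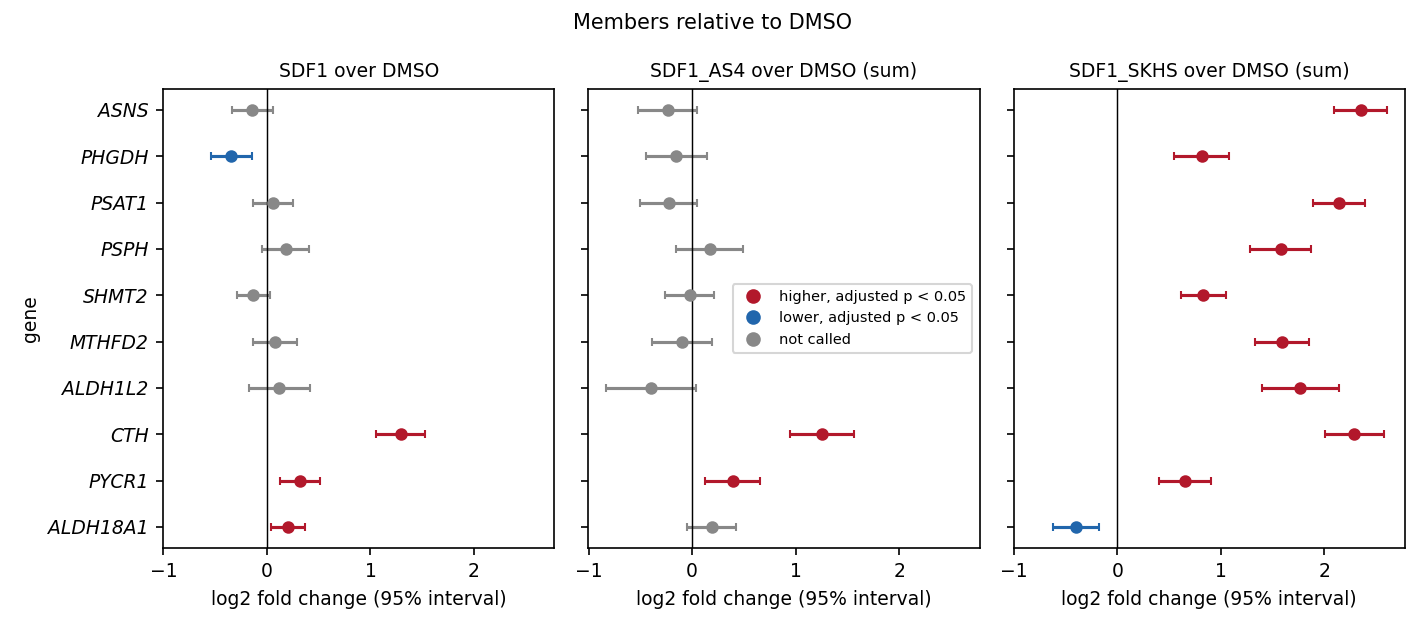
Log2 fold change over DMSO of each of the 10 enzymes (rows) in SDF1, SDF1_AS4 and SDF1_SKHS (panels), the last 2 as sums of deposited values, with 95% intervals as lines (3 cultures a group). CTH lies at 1.29, 1.25 and 2.29 in the 3 panels, while ASNS lies at -0.14, -0.24 and 2.35.

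The genes whose pattern over the 3 deposited comparisons lay nearest to the median pattern of the 10 enzymes (0.10, -0.03 and 1.28) were found by Euclidean distance of the authors' deposited log2 fold changes among 11768 genes measured precisely in all 3 comparisons. The nearest 6 outside the list were GARS1, a glycine tRNA synthetase, CEBPG, a partner of ATF4, PCK2, the mitochondrial phosphoenolpyruvate carboxykinase, TUFT1, PXK and SNAPC1, at distances from 0.133 to 0.172. Their log2 fold changes in SDF1_SKHS over SDF1 ran from 1.15 for PCK2 to 1.43 for PXK. Nearest to ASNS were SLC7A11, the cystine transporter (distance 0.341), DDIT4, an mTORC1 inhibitor (0.407), and CHAC1 (0.501). CEBPG, DDIT4 and CHAC1 also stand in the integrated stress response list. The 3 comparisons share the SDF1 cultures, so these distances are a description.

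Some values may include reads of other transcripts, since how reads were shared between copies or strands is not given in the sources used here. GENCODE 29 lists pseudogenes named after ASNS (4), MTHFD2 (7), PSAT1 (4) and PSPH (1). Annotated genes on the opposite strand overlap ASNS, ALDH1L2, MTHFD2, SHMT2 and PYCR1, among them NDUFA4L2 at SHMT2 and SLC4A5 at MTHFD2. On the same strand, MYADML2, which codes for a protein, overlaps PYCR1, and 1 noncoding transcript each overlaps ASNS and CTH, which strand could not separate.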

How the data were processed

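Per the labels, RNA was taken from C28/I2 cultures with Trizol and made into libraries with a BGI kit. Per the submitters' processing notes, Bowtie2 2.2.5, RSEM 1.2.12, DESeq2 1.4.5 and GRCh38.p13 were used, with no roles given. The authors deposited 1 table of log2 fold changes, p-values and q-values for 3 comparisons, per the file headers from DESeq2. Whether the log2 fold changes deposited by the authors were shrunken is not given in the sources used here. The q-value deposited by the authors matched p-values adjusted anew by Benjamini-Hochberg (largest difference 1.29e-14). Each header names 2 groups, and the second was read as the numerator. All 1576 values of genes with no value in another comparison lay on the side this reading needs.

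Nothing says that the 3 cultures of a group were independent, so p-values measure only the spread between them. Implied standard errors assume a Wald test. Comparisons not in the table are differences or sums of 2 deposited ones. Members and lists were chosen with earlier results of these data known, and named genes follow a rule (all members, their isoenzymes, at most 4 called genes per list and comparison by p, 4 stress response genes, nearest patterns). Length, GC content and coordinates came from GENCODE 29, with length and GC content for 95.8% of symbols. Python 3.11.15, numpy 2.4.6, scipy 1.17.1, pandas 2.3.3 and matplotlib 3.10.9 were used, and the steps were tested on simulated data. Some genes of the lists enter the counts and are not reported here by name.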

Additional observations from a re-analysis of the deposited data

How the results depend on the processing

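The call of all 10 enzymes in SDF1_SKHS over SDF1 and over DMSO, 9 higher and ALDH18A1 lower, was the same at an adjusted p under 0.01, among genes whose implied standard error did not exceed 0.5, after centring and with the trend in transcript length and GC content removed. No called fold change of an enzyme reversed under these settings, a t distribution with 4 degrees of freedom or, for comparisons not in the table, an assumed shared SDF1 part taken out. The t distribution raises every p-value by construction. It left 9 of the 10 for SDF1_SKHS over SDF1 (PYCR1 lost, adjusted p = 0.0951), 8 over DMSO (ALDH18A1, the 1 lower, and PYCR1 lost), 1 for SDF1 over DMSO (CTH), 0 for SDF1_SKHS over SDF1_AS4 and 0 for SDF1_AS4 over DMSO, with 9 and 2 at an unadjusted p under 0.05 in those last 2. Over all genes it left 1092 for SDF1 over DMSO, 1350 for SDF1_SKHS over SDF1 and 0 for SDF1_AS4 over SDF1, where 825 had an unadjusted p under 0.05. Counts over all genes under the t distribution are not given for comparisons that are differences or sums. For SDF1_AS4 over DMSO 1 enzyme (CTH) remained called at 0.01 and 1 with the trends removed. Over all genes, SDF1_AS4 over SDF1 had 65 calls as deposited, 7 at 0.01 and 190 under that limit of 0.5, and its share of higher calls was 55.4% as deposited, 66.7% after centring and 32.6% with the trends removed. ASNS in SDF1 over DMSO passed only with the trends removed (-0.25, adjusted p = 0.0401). Depth is unknown, so no limit from counts is given. No paired analysis was possible because the table holds no value per culture, and leaving out each replicate was not run for the same reason.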
